A study of Mus musculus with 8 samples.

Results

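Messenger RNAs of 9 regulators of mRNA stability and translation were followed in mouse muscle stem cells, after culture and in freshly sorted cells. The genes were taken by symbol from a table of 45706 gene lines: Zfp36, Zfp36l1, Zfp36l2, Pum2, Stau1, Ddx6, Pabpc1, Pabpc4 and Elavl1. Each symbol had a line, and all 9 were among the 19054 genes kept after a filter on low counts. Of the 9, 3 were lower in cultured cells, 3 were higher and 3 did not pass the test at an adjusted p of 0.05. Of all genes tested, 26.9% were called, 18.0% as lower and 8.87% as higher. Among the called regulators, Zfp36l2 (lower) and Elavl1 (higher) lost their calls in several alternative fits given below. Zfp36 was 86.8-fold lower in cultured cells, whereas the poly(A)-binding protein genes Pabpc1 and Pabpc4 were 3.35-fold and 6.25-fold higher.

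The cytoplasmic life of an mRNA is set by proteins that bind its 3′ untranslated region (3′ UTR) and its poly(A) tail. ZFP36 (tristetraprolin) and its relatives ZFP36L1 and ZFP36L2 are zinc finger proteins that bind AU-rich elements and recruit the CCR4-NOT deadenylase. Pumilio and Staufen proteins hold mRNAs in an untranslated or unstable state, DDX6 is an RNA helicase of translation repression and decapping, PABPC1 and PABPC4 coat poly(A) tails, and ELAVL1 (HuR) binds AU-rich elements and stabilises many of the mRNAs it binds. In quiescent mouse muscle stem cells ZFP36 is known to promote decay of Myod1 mRNA and STAU1 to block its translation.

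Both groups were wild-type (WT) C57BL/6 females aged 8 to 12 weeks, and cells were sorted from hindlimb muscle for α7-integrin and CD34, without CD45, CD11b, Sca1 and CD31. The cultured group was 3 libraries from cells kept for 48 h on a hydrogel of 12 kPa in a growth medium with fetal bovine serum, and the fresh group was 5 libraries from cells processed without culture. The question was how the transcriptome of these cells changes with culture. Fresh libraries 1 to 3 were sequenced apart (run 1), and fresh libraries 4 and 5 were in the same run as the cultured ones (run 2). The labels do not say that the libraries of a group came from separate animals or cultures, so p-values measure the spread between these libraries, which may be technical.

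Libraries held 13919440 to 20068154 counts. At least 1 count was seen for 15415 to 17852 genes in cultured libraries, for 20480 and 20898 in run-2 fresh libraries and for 32710 to 34689 in run-1 fresh libraries. Mitochondrial ribosomal RNA took 11.1 to 18.4% of counts in cultured libraries, 23.2 and 26.5% in run-2 fresh libraries and 5.25 to 10.5% in run-1 fresh libraries. Levels are given in CPM, counts relative to the scaled size of the library. Differences are log2 fold changes of cultured over fresh cells from edgeR's quasi-likelihood test, which held the run as a second term. P-values had Benjamini-Hochberg adjustment over all genes tested. The standard error (SE) was derived from that test, as the absolute log2 fold change over the square root of its F statistic. Since every cultured library was in run 2, these differences rest on the 2 fresh libraries of run 2, while those of run 1 inform the spread. The summed level of 10 muscle stem cell markers was 1214 to 1336 CPM in cultured and 5788 to 6244 CPM in fresh libraries, and each of these markers had counts in both groups. Gene by gene, 8 of these 10 markers fell, beside 18.0% of all genes tested. The other 2 did not pass and none rose, with a median log2 fold change of -2.02.

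The AU-rich heptamer TATTTAT, the core that ZFP36 proteins bind, stood in the 3′ UTRs of the Zfp36 family's own mRNAs and of Elavl1. Windows of 29 bases around these matches are given to show the element the family binds, read along the transcript from GENCODE M21 on mm10, with the heptamer in capitals. The last lines are Myod1, a known ZFP36 target in these cells, and Fos, a classic AU-rich mRNA.
Zfp36 match 1, chr7:28376966-28376994, minus strand: agtgggcccttTATTTATgacgactttat
Zfp36 match 2, chr7:28376951-28376979, minus strand: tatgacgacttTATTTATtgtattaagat
Zfp36 match 3, chr7:28376926-28376954, minus strand: agattttatagTATTTATatatattgggt
Zfp36l1 match 1, chr12:80108422-80108450, minus strand: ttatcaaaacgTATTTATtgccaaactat
Zfp36l2 match 1, chr17:84184914-84184942, minus strand: actatttaactTATTTATtatcttgtgaa
Elavl1 match 1, chr8:4285788-4285816, minus strand: gtcatgaaaatTATTTATttatttattta
Myod1, chr7:46378968-46378996, plus strand: cccttgggctaTATTTATctcccaggcat
Fos match 1, chr12:85477103-85477131, plus strand: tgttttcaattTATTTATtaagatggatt

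Zfp36 had 3 such matches in a 3′ UTR of 774 bases, Zfp36l1 3 in 1835 bases and Zfp36l2 3 in 1822 bases. Elavl1 had 8 in 4218 bases, which lay in a run of repeats where matches overlap. Pum2 had 1 match in 2861 bases, and Stau1, Ddx6, Pabpc1 and Pabpc4 had none in these windows of the annotation. Of the 14299 genes tested that have an annotated 3′ UTR, 27.6% held at least 1 match and 3.50% held 3 or more. Only the transcript's strand was searched, and a match is a description of sequence, not a measured binding site.

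The motif TGTANATA, which Pumilio proteins bind, stood in the 3′ UTR of Pum2 itself and of Ddx6, each with 2 matches. It was also in the 3′ UTR of Myod1, just before the AU-rich match. These windows of 30 bases show the motif in capitals.
Pum2 Pumilio match 1, chr12:8750154-8750183, plus strand: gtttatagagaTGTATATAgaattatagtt
Ddx6 Pumilio match 1, chr9:44637153-44637182, plus strand: tccatccacacTGTACATAcatgtatttaa
Myod1 Pumilio match, chr7:46378924-46378953, plus strand: taatctattcgTGTAAATAagagttgcttg
At least 1 match of this motif was in 24.2% of the 14299 3′ UTRs.

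Zfp36 (ENSMUSG00000044786, mm10 chr7:28376784-28380253, minus strand) encodes tristetraprolin, the founding AU-rich decay factor. Its level was 33.3, 42.0 and 40.3 CPM in cultured libraries 1 to 3, against 5009.6, 4043, 3574, 3435 and 3256 CPM in fresh libraries 1 to 5. All cultured libraries lay far below all fresh ones, and the 3 highest levels were those of run-1 fresh libraries. The mean was 38.5 ± 4.62 CPM in cultured (SD, n = 3) and 3863 ± 704 CPM in fresh cells (SD, n = 5), where Zfp36 took 0.376% of all counts and 15 genes had a higher mean. Zfp36 fell in culture, by 6.44 ± 0.26 on the log2 scale (SE, adjusted p = 1.07e-05). A fitted fold change further below 0 was found for 1615 of the genes tested.

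Zfp36l1 (ENSMUSG00000021127, chr12:80107754-80113013, minus strand) encodes BRF1, a close relative that acts on the same kind of element. It had 61.6, 132 and 109 CPM in cultured libraries 1 to 3, against 601, 436, 499, 914 and 886 CPM in fresh libraries 1 to 5. Again no cultured library reached any fresh one, but here the run-2 fresh libraries were the highest. Zfp36l1 was 8.91-fold lower in cultured cells, at -3.16 ± 0.32 on the log2 scale (SE, adjusted p = 0.000434). Set against only the fresh libraries of run 1, the value was -2.27 ± 0.34 (SE, adjusted p = 0.00372).

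Zfp36l2 (ENSMUSG00000045817, chr17:84183931-84187947, minus strand) encodes the third member of the family, BRF2. Its level was 116, 292 and 188 CPM in cultured libraries 1 to 3, against 167, 125, 253, 623 and 583 CPM in fresh libraries 1 to 5. The cultured libraries lay below the fresh libraries of run 2 and among those of run 1, so the groups overlapped. The log2 fold change was -1.60 ± 0.40 (SE, adjusted p = 0.0185), a 3.03-fold lower level in cultured cells, and it passed the test in this comparison with run-2 fresh cells. Against run-1 fresh libraries alone it was 0.21 ± 0.41 (SE, adjusted p = 0.733), and without a run term -0.82 ± 0.55 (SE, adjusted p = 0.261). The call also ended without cultured library 3 (adjusted p = 0.0517), fresh library 4 (0.102) or fresh library 5 (0.0791), and without scaling factors (0.0756).

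Beyond the calls, the cultured libraries of 7 of the 9 genes did not overlap the fresh ones, against 39.9% of all genes. In 4 of these the cultured libraries were all below the fresh ones (26.1% of all genes) and in 3 all above (13.7%). The median log2 fold change of the 9 genes was -0.41, beside -0.21 over all genes tested.

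**Figure D1:**
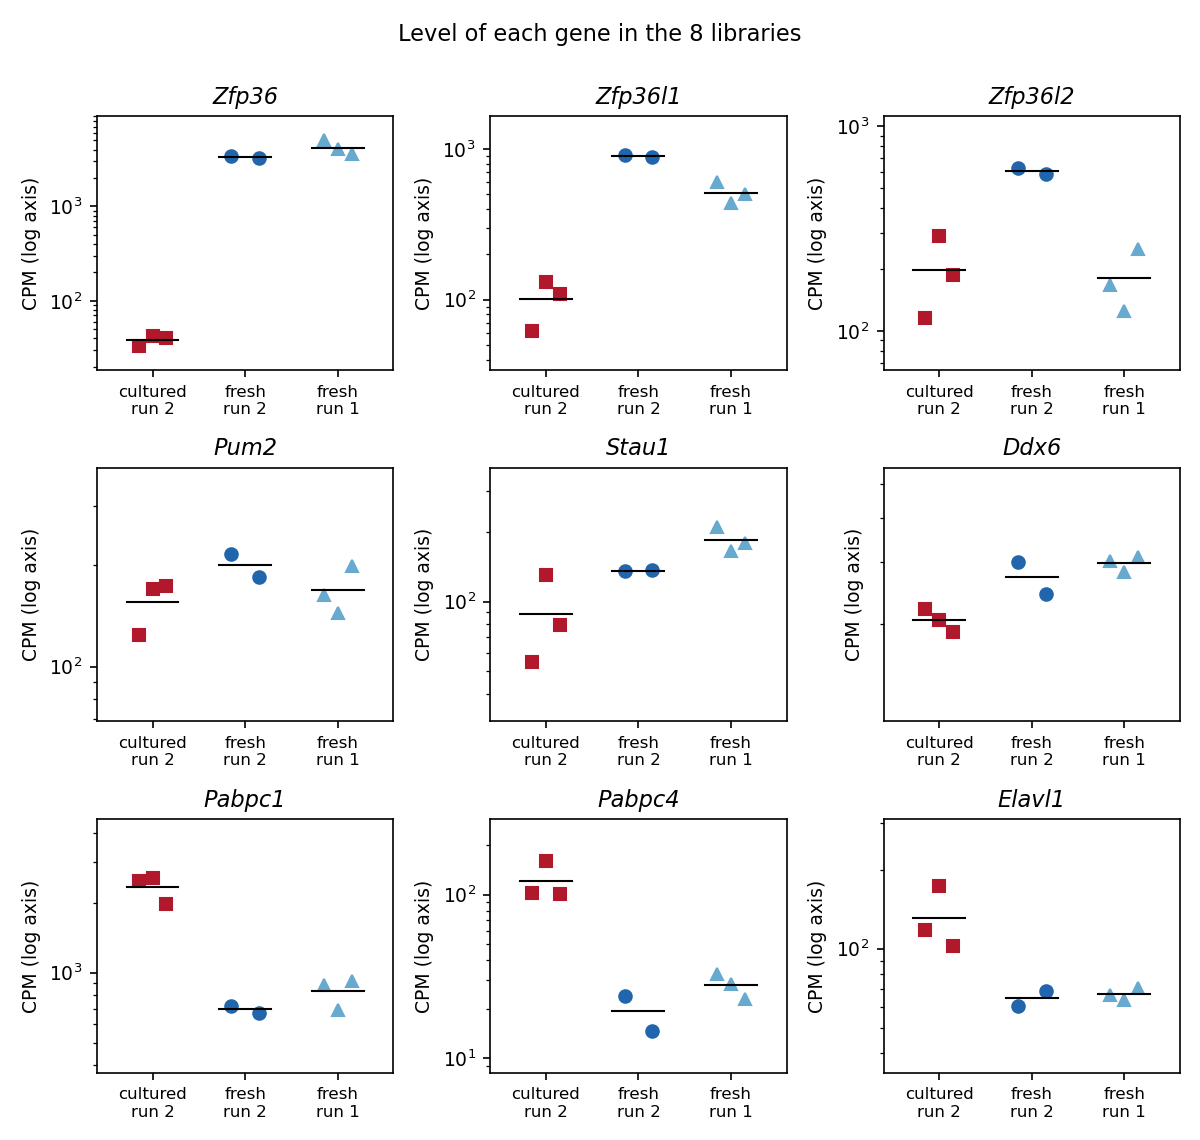
Level of each of the 9 genes in CPM (log axis) in cultured libraries (red squares), run-2 fresh libraries (dark circles) and run-1 fresh libraries (light triangles), with a bar at each mean. Zfp36 is at 33.3 to 42.0 CPM in cultured and 3256 to 5009.6 CPM in fresh libraries, and Zfp36l2 is the gene whose run-1 fresh libraries lie among the cultured ones.

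Other measures moved with culture beside the Zfp36 family. A list of 28 immediate early genes, transcripts that stimulated or handled cells induce within minutes, summed to 2863 to 3872 CPM in cultured and 29892 to 52073 CPM in fresh libraries. Of these, 21 fell, 7 did not pass and none rose, with a median log2 fold change of -3.92. Fos, a subunit of AP-1, had 11.2 ± 4.45 CPM in cultured (SD, n = 3) and 2640.2 ± 996 CPM in fresh cells (SD, n = 5). Nr4a1, an orphan nuclear receptor, had 5.49 ± 4.66 CPM in cultured and 861 ± 159 CPM in fresh cells, at -7.34 on the log2 scale (adjusted p = 0.000314) and at -8.24 without cultured library 2. The part of these genes in the levels of the Zfp36 family was not tested.

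The summed markers of 5 other cell types were lower in every cultured than in every fresh library. Pericyte markers summed to 35.9 to 130 CPM in cultured and 471 to 2727 CPM in fresh libraries, with Abcc9 and Kcnj8 at 0 in every cultured library. Schwann cell markers summed to 17.7 to 35.5 CPM in cultured and 461 to 2192 CPM in fresh libraries, and fibro-adipogenic markers to 7.59 to 19 CPM in cultured and 878 to 1203 CPM in fresh libraries. Endothelial markers summed to 0.720 to 41.2 CPM in cultured and 91.0 to 132 CPM in fresh libraries, and immune markers to 3.87 to 10.3 CPM in cultured and 24.9 to 71.8 CPM in fresh libraries. Gene by gene, 6 of 9 pericyte, 8 of 9 Schwann cell and 5 of 7 fibro-adipogenic markers tested fell, beside 18.0% of all genes. Of endothelial and of immune markers tested, 2 of 6 each fell, and the median log2 fold change of the immune markers tested was 0.32. At 0 in every cultured library were 6 of 10 immune, 3 of 8 endothelial, 3 of 9 Schwann cell and 2 of 7 fibro-adipogenic markers. None in these lists rose. Those of another pair overlapped between the groups: myofibre markers summed to 12.7 to 79.3 CPM in cultured and 39.8 to 49.6 CPM in fresh libraries, and erythroid markers to 0 to 0.612 CPM in cultured and 0.0651 to 2.54 CPM in fresh libraries. In bulk samples fewer cells of a type and less RNA per cell cannot be told apart, and the part of these cells in the levels of the 9 genes was not tested.

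The translation repressors differed less. Pum2 (ENSMUSG00000020594, chr12:8674134-8752581, plus strand), a Pumilio protein that represses mRNAs with the motif above, had 124, 170 and 173 CPM in cultured libraries 1 to 3, against 163, 144, 199, 216 and 185 CPM in fresh libraries 1 to 5. The groups overlapped, with cultured library 1 the lowest of all 8. The log2 fold change was -0.37 ± 0.25 (SE, adjusted p = 0.318), and without scaling factors it was 0.07.

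Stau1 (ENSMUSG00000039536, chr2:166947549-166996299, minus strand) encodes a double-stranded RNA binding protein of mRNA transport, repression and decay. It had 54.7, 130 and 79.3 CPM in cultured libraries 1 to 3, against 210, 165, 179, 135 and 137 CPM in fresh libraries 1 to 5. All cultured libraries were below all fresh ones, with cultured library 2 close to the run-2 fresh libraries. The log2 fold change was -0.63 ± 0.34 (SE, adjusted p = 0.213) and did not pass. It passed without a run term, at -0.91 (adjusted p = 0.0426), and without cultured library 2, at -1.0 (adjusted p = 0.0427).

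Ddx6 (ENSMUSG00000032097, chr9:44604892-44640731, plus strand), the helicase, had 221, 206 and 190 CPM in cultured libraries 1 to 3. In fresh libraries 1 to 5 it had 303, 282, 310, 301 and 244 CPM. The groups did not overlap, but their nearest libraries, at 221 and 244 CPM, were close. The log2 fold change was -0.41 ± 0.20 (SE, adjusted p = 0.172), and without scaling factors it was 0.00.

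The poly(A)-binding protein genes moved the other way from the Zfp36 family. Pabpc1 (ENSMUSG00000022283, chr15:36595661-36609668, minus strand), the main cytoplasmic poly(A)-binding protein, had 2473, 2539 and 1965 CPM in cultured libraries 1 to 3, against 884, 693, 917, 721 and 668 CPM in fresh libraries 1 to 5. Every cultured library was above every fresh one. The log2 fold change was 1.74 ± 0.23 (SE, adjusted p = 0.00139). Processed copies of Pabpc1 lie elsewhere in the mouse genome, so its counts depend on how reads that fit several places were divided.

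Pabpc4 (ENSMUSG00000011257, chr4:123262351-123298925, plus strand) encodes an inducible poly(A)-binding protein. It had 102, 161 and 101 CPM in cultured libraries 1 to 3, against 33.0, 28.4, 23.2, 24.1 and 14.7 CPM in fresh libraries 1 to 5. The groups lay well apart, and cultured library 2 was the highest. Pabpc4 rose by 2.64 ± 0.39 on the log2 scale (SE, adjusted p = 0.00235).

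Elavl1 (ENSMUSG00000040028, chr8:4285382-4325413, minus strand), the stabilising AU-rich binder, had 118, 173 and 102 CPM in cultured libraries 1 to 3, against 66.3, 64.0, 70.8, 60.6 and 68.9 CPM in fresh libraries 1 to 5. All cultured libraries were above all fresh ones, and the fresh libraries were close to each other. The log2 fold change was 1.02 ± 0.29 (SE, adjusted p = 0.0323), a 2.02-fold higher level. This call was near the threshold, and the adjusted p was 0.0539 to 0.155 without any single fresh library and 0.0661 without cultured library 2. The chemokine gene Ccl25 overlaps Elavl1 on the opposite strand and averaged 12.3 CPM in cultured and 2.33 CPM in fresh cells. No source used here says whether counting kept strands apart, so reads of overlapping opposite genes may be mixed.

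**Figure D2:**
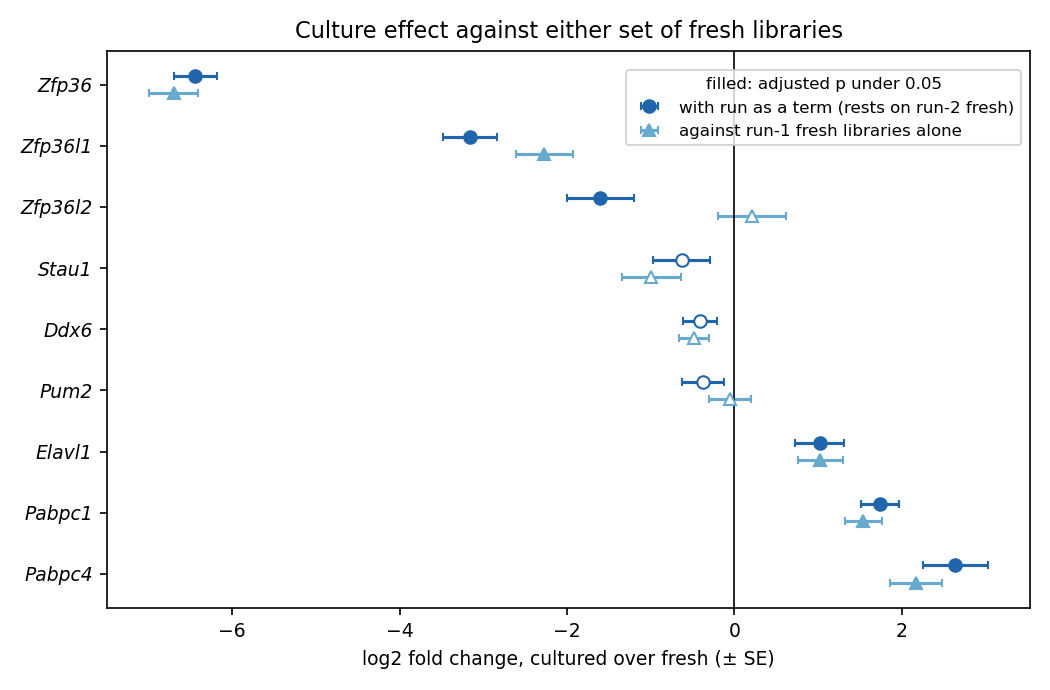
Log2 fold change of cultured over fresh cells (± SE) for the 9 genes, from the test with run as a term (circles) and against the run-1 fresh libraries alone (triangles), filled where the adjusted p is under 0.05. Zfp36l2 is at -1.60 in the first and at 0.21 in the second, and the other called genes keep their direction.

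Fresh cells of run 2 were also compared with fresh cells of run 1, in the same edgeR fit. None of the 9 genes was called, and 0.189% of all genes were. These were 36 genes, against 806 with the fresh libraries fitted alone, so the number depends on the fit. The largest difference was that of Zfp36l2, which averaged 603 ± 27.9 CPM in run-2 (SD, n = 2) and 181 ± 65.2 CPM in run-1 fresh libraries (SD, n = 3). Its log2 difference was 1.73 ± 0.40 (SE, adjusted p = 0.0603), and with the fresh libraries fitted alone it was called (adjusted p = 0.0166). Zfp36l1 averaged 900 ± 19.6 CPM in run-2 and 512 ± 83.2 CPM in run-1 fresh libraries, with a log2 difference of 0.81 ± 0.31 (SE, adjusted p = 0.238). For Zfp36 the difference was -0.33 ± 0.22 (SE, adjusted p = 0.603). The mitochondrial share and the number of genes detected differed between these runs as given above, and their part in the Zfp36l2 difference cannot be told apart from the run.

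Levels of different genes were compared per kilobase of annotated exon (CPM per kb). In fresh cells Zfp36 had the highest level of the 9 genes, 1113 ± 203 CPM per kb, followed by Zfp36l1 with 223 ± 73.8 and Pabpc1 with 119 ± 17.6 (SD, n = 5). With the longest transcript as length Pabpc1 came before Zfp36l1, at means of 266 and 223 CPM per kb. In cultured cells Zfp36 had the lowest of the 9, 11.1 ± 1.33 CPM per kb, and Pabpc1 the highest, 356 ± 48.0 (SD, n = 3). Next after Pabpc1 in cultured cells came Zfp36l2 with 56.3 ± 25.1, Zfp36l1 with 33.8 ± 12.1 and Pabpc4 with 30.1 ± 8.60 CPM per kb, whose ranges over libraries overlapped. By the longest transcript Pabpc4 was at 38.3, Ddx6 at 33.9 and Zfp36l1 at 33.8 CPM per kb. At the low end Elavl1 with 12.7 ± 3.61 and Stau1 with 14.5 ± 6.32 CPM per kb did not differ from Zfp36 beyond their spread by this length. By the longest transcript the means were 22.8 for Elavl1, 24.6 for Stau1 and 13.8 for Zfp36. Cultured libraries were then at 15.3 to 36.3 CPM per kb for Stau1 and 11.9 to 15.1 for Zfp36, without overlap. In fresh cells Zfp36l2 with 99.2 ± 66.8 overlapped Pabpc1, while Ddx6 at 35.9 ± 3.30, Stau1 at 27.2 ± 5.17 and Pum2 at 25.0 ± 3.92 CPM per kb were close neighbours. With the longest transcript Zfp36l2 reached at most 176 CPM per kb and Pabpc1 was at 229 to 314, so they did not overlap. Ddx6, Stau1 and Pum2 then averaged 47.5, 46.2 and 28.7 CPM per kb. Elavl1 and Pabpc4 were lowest in fresh cells, at 6.38 ± 0.386 and 6.13 ± 1.69 CPM per kb.

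The make-up of the Zfp36 family was different in the groups. Zfp36 gave 11.8 ± 3.26% of the family's summed CPM per kb in cultured (SD, n = 3) and 77.5 ± 9.64% in fresh cells (SD, n = 5). Zfp36l2 gave 54.7 ± 4.10% in cultured and 6.97 ± 4.65% in fresh cells, and Zfp36l1 gave 33.5 ± 2.18% in cultured and 15.6 ± 5.01% in fresh cells. No library of one group reached the other group's range for any of these shares. The family's sum was 101 ± 38.0 CPM per kb in cultured and 1436 ± 161 CPM per kb in fresh cells. Within fresh cells the Zfp36 share was 67.3 and 67% in run-2 libraries and 81.2 to 86.5% in run-1 libraries.

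**Figure D3:**
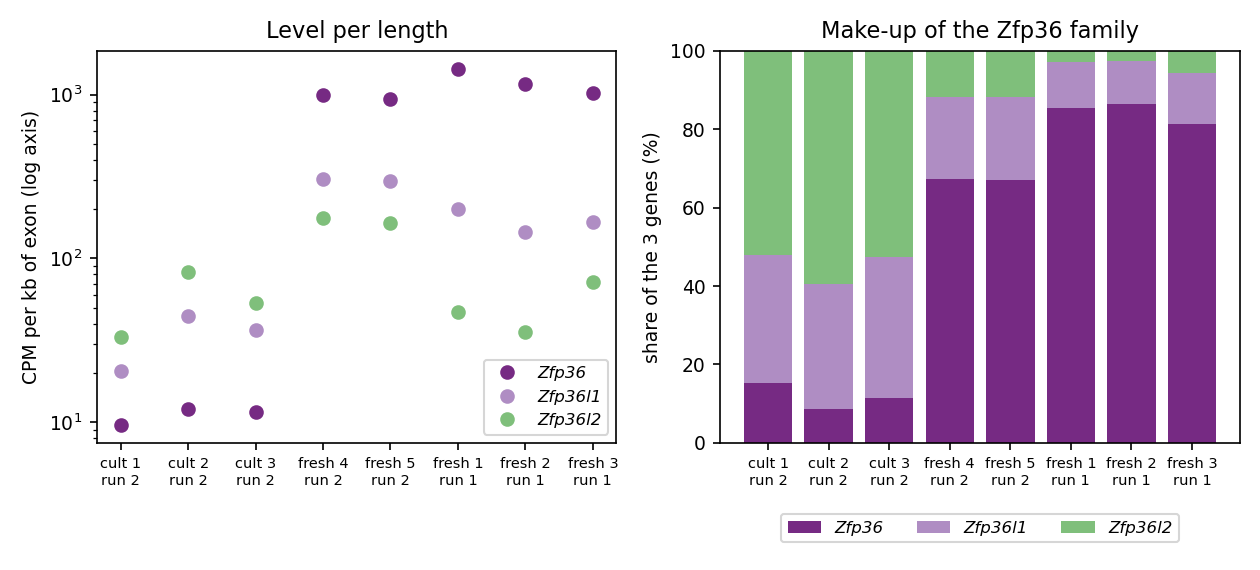
Left, CPM per kb of exon (log axis) of the 3 Zfp36 family genes in each library, cultured libraries first. Right, their shares of the family's sum in percent, where Zfp36 is 8.71 to 15.2% of the sum in cultured and 67 to 86.5% in fresh libraries.

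Pabpc1 gave 92.2 ± 1.55% of the summed CPM per kb of Pabpc1 and Pabpc4 in cultured and 95.1 ± 1.17% in fresh cells, and the sum was 386 ± 53.6 CPM per kb in cultured and 125 ± 18.5 CPM per kb in fresh cells. Stau1 gave 77.8 ± 19.9% of Stau1 and Stau2 in cultured and 88.2 ± 3.92% in fresh cells.

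Of 13 paralogs of the 9 genes, 9 were tested, of which 2 rose and none fell. Pum3, a Pumilio-related protein of ribosome assembly, had 164 ± 54.7 CPM in cultured and 43.2 ± 14.2 CPM in fresh cells, a log2 difference of 2.23 ± 0.42 (SE, adjusted p = 0.00572). Pabpn1, the nuclear poly(A)-binding protein, had 67.1 ± 2.49 CPM in cultured and 45.1 ± 8.47 CPM in fresh cells (log2 0.87, adjusted p = 0.0456), a call that ended without any single library other than cultured library 1 (adjusted p 0.0651 to 0.153) and against run-1 fresh libraries alone (log2 0.47, adjusted p = 0.171). Stau2 had 26.6 ± 21.2 CPM in cultured and 23.6 ± 4.86 CPM in fresh cells (log2 -0.11 ± 0.65, adjusted p = 0.948). The neuronal Elavl genes were low in both groups, with Elavl2 at 1.61 ± 2.75, Elavl3 at 0.0343 ± 0.0594 and Elavl4 at 0.0176 ± 0.0304 CPM in cultured, and 1.01 ± 0.930, 1.31 ± 0.954 and 1.12 ± 1.24 CPM in fresh cells. Elavl2 and Elavl4 were at 0 CPM in fresh libraries 4 and 5, so their fresh means come from run 1 (1.68 and 1.87 CPM). The cultured mean of Elavl2 rests on cultured library 3, at 4.79 CPM. The other poly(A)-binding genes were low too, with Pabpc1l at 6.59 ± 5.41, Pabpc4l at 6.99 ± 12.1 and Pabpc6 at 0.429 ± 0.153 CPM in cultured, and 1.29 ± 0.729, 1.22 ± 1.01 and 0.849 ± 0.679 CPM in fresh cells. Zfp36l3, Pabpc2, Pabpc5 and Pabpn1l did not pass the filter on low counts.

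Calls in the lists of related genes are to be set against the 8.87% higher and 18.0% lower of all genes tested, and shares near these are not read as a result about a list. Of 38 other 3′ UTR binding proteins 10 rose and 2 fell, with a median log2 fold change of 0.52. Ybx1, a cold shock domain protein that packages mRNAs, had 654 ± 165 CPM in cultured and 207 ± 34.1 CPM in fresh cells (log2 1.65 ± 0.30, adjusted p = 0.00522), and Ybx3, of the same family, had 791 ± 216 CPM in cultured and 176 ± 33.0 CPM in fresh cells (log2 2.25 ± 0.32, adjusted p = 0.00190). Rbms3, which binds AU-rich 3′ UTRs, fell to 36.9 ± 9.74 CPM in cultured cells, against 264 ± 80.8 CPM in fresh cells (log2 -3.24 ± 0.26, adjusted p = 0.000158). Mbnl2, a muscleblind splicing and localisation factor, had 196 ± 124 CPM in cultured and 502 ± 119 CPM in fresh cells (log2 -1.68, adjusted p = 0.0187), a call that ended without fresh library 4 or 5 (adjusted p 0.0707 and 0.0720) and against run-1 fresh libraries alone (log2 -1.05, adjusted p = 0.0760).

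Deadenylation genes, of CCR4-NOT and of other deadenylases, had 3 of 22 higher, 5 lower and 14 that did not pass, near the shares of all genes, with a median of 0.18. Cnot9, a CCR4-NOT subunit, had 71.7 ± 20.4 CPM in cultured and 13.7 ± 5.03 CPM in fresh cells, a log2 difference of 2.92 ± 0.54 (SE, adjusted p = 0.00542) that was 3.86 without fresh library 4. The scaffold Cnot1 had 384 ± 118 CPM in cultured and 247 ± 53.2 CPM in fresh cells (log2 1.01, adjusted p = 0.0267), and the catalytic subunit Cnot6l 157 ± 53.0 CPM in cultured and 66.8 ± 7.76 CPM in fresh cells (log2 1.17, adjusted p = 0.0301). Both calls ended without fresh library 4 or 5 (adjusted p 0.105 and 0.110 for Cnot1, 0.0965 and 0.142 for Cnot6l), and that of Cnot6l also without fresh library 1 (0.0517). Cnot1 was at 0.48 (adjusted p = 0.164) against run-1 fresh libraries alone and at 0.64 (0.0793) with no run term. Tob1, an adaptor between mRNA binders and CCR4-NOT, fell to 25.3 ± 10.6 CPM in cultured cells, against 107 ± 15 CPM in fresh cells (log2 -1.85 ± 0.37, adjusted p = 0.00697). Angel1, a nuclease-like protein, had no count in cultured libraries and 4.6 ± 2.41 CPM in fresh cells. With 3 counts given to the cultured libraries together (0.0517 CPM), it was at least 43.7-fold lower than the mean of the fresh libraries of run 2 (2.26 CPM). Pan2 (log2 -2.12), Angel2 (log2 -1.88) and Tnks1bp1, listed as Tab182 (log2 -1.99), had adjusted p of 0.0468, 0.0369 and 0.0305. Pan2 lost its call without cultured library 3 or any fresh library (adjusted p 0.0693 to 0.170). Angel2 lost it without cultured library 2 or any fresh library (0.0534 to 0.254), and Tab182 without any library other than cultured library 1 (0.0505 to 0.169), where the log2 fold change was -2.63. Against run-1 fresh libraries alone Pan2 was at -2.04 (adjusted p = 0.0578) and Angel2 at -1.62 (0.0557).

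Decapping and 5′ decay genes, among which DDX6 works, had 4 of 21 higher and 4 lower and a median of 0.58. Lsm2, of the ring that binds deadenylated tails, had 55.9 ± 15.5 CPM in cultured and 9.31 ± 2.39 CPM in fresh cells (log2 2.84 ± 0.49, adjusted p = 0.00435). Dcp1a, a decapping activator, had 106 ± 15 CPM in cultured and 51.5 ± 9.93 CPM in fresh cells (log2 1.37 ± 0.27, adjusted p = 0.00663). Pnrc1, a decapping coactivator, fell to 16.9 ± 5.33 CPM in cultured cells, against 325 ± 85.7 CPM in fresh cells (log2 -4.58 ± 0.33, adjusted p = 0.000104). Dcp1b had 0.425 ± 0.736 CPM in cultured and 23.7 ± 5.40 CPM in fresh cells (adjusted p = 0.0215, and 0.0582 and 0.0937 without fresh library 4 and 5), and its log2 fold change of -5.89 was -5.25 to -11.78 without single cultured libraries. Lsm6 (log2 1.23, adjusted p = 0.0286), Patl1 (log2 0.78, 0.0463), Pnrc2 (log2 -1.67, 0.0436) and the exonuclease Xrn1 (log2 -1.16, 0.0115) lost their calls without single libraries. For Lsm6 these were fresh libraries 1, 2, 3 and 5 (adjusted p 0.0503 to 0.168), for Patl1 all but cultured library 3 (0.0525 to 0.212), for Pnrc2 all but cultured library 3 (0.0565 to 0.220; log2 -2.30 without that one) and for Xrn1 fresh library 4 (0.0566). Against run-1 fresh libraries alone Xrn1 was at -0.25 (adjusted p = 0.468), Pnrc2 at -0.61 (0.397) and Patl1 at 0.27 (0.346). With no run term their adjusted p was 0.104 for Xrn1, 0.0856 for Pnrc2 and 0.224 for Patl1.

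Of 17 genes of microRNA silencing 3 rose and 2 fell (median 0.27). Tnrc6b, a GW182 scaffold that links Argonaute to deadenylases, fell to 50.9 ± 34.7 CPM in cultured cells, against 349 ± 43.7 CPM in fresh cells (log2 -2.83 ± 0.47, adjusted p = 0.00363; -3.53 without cultured library 2). Xpo5, which exports microRNA precursors, had 85.3 ± 18.6 CPM in cultured and 33.2 ± 8.12 CPM in fresh cells (log2 1.79 ± 0.32, adjusted p = 0.00473), and the microprocessor subunit Dgcr8 had 48.4 ± 5.43 CPM in cultured and 15.4 ± 2.81 CPM in fresh cells (log2 1.91 ± 0.40, adjusted p = 0.00848; 0.0603 without fresh library 5). Ajuba (log2 2.59, adjusted p = 0.0351) lost its call without cultured library 3 or fresh library 1, 3 or 5 (0.0520 to 0.190) and was at 3.62 without fresh library 4. Ago4 (log2 -4.57, adjusted p = 0.0316) lost its call without any single fresh library (0.0578 to 0.0996), and its log2 fold change was -6.00 and -3.95 without cultured library 2 and 3. Its adjusted p was 0.0566 against run-1 fresh libraries alone.

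Staufen-mediated decay shares its machinery with nonsense-mediated decay, and 2 of its 14 genes rose while none fell (median 0.76). Eif4a3, a core protein of the exon junction complex, had 84.3 ± 14.5 CPM in cultured and 37.2 ± 10.2 CPM in fresh cells (log2 1.62 ± 0.31, adjusted p = 0.00639). Smg5 had 70.7 ± 21.4 CPM in cultured and 28.8 ± 6.34 CPM in fresh cells (log2 1.63 ± 0.39, adjusted p = 0.0145; 0.0920 without fresh library 4).

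Exosome genes, whose products degrade RNA from the 3′ end, had 4 of 17 higher and 1 lower (median 0.87). Exosc1 had 69.0 ± 22.4 CPM in cultured and 7.97 ± 3.02 CPM in fresh cells (log2 3.63 ± 0.51, adjusted p = 0.00168). The catalytic subunit Dis3 had 143 ± 45.7 CPM in cultured and 32.9 ± 9.15 CPM in fresh cells (log2 2.36 ± 0.43, adjusted p = 0.00516; 2.97 without fresh library 4). Exosc7 (log2 1.81, adjusted p = 0.0412), Exosc10 (log2 1.05, 0.0310) and Dis3l2 (log2 -1.50, 0.0425) lost their calls without any single fresh library or without cultured library 2, and Exosc7 and Dis3l2 also without cultured library 3. Their adjusted p then was 0.0508 to 0.188, 0.0532 to 0.164 and 0.0612 to 0.152.

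Genes listed under translation repression, not all of them repressors, had 8 of 38 higher and 3 lower (median 0.29). G3bp1, a stress granule protein, had 193 ± 40.5 CPM in cultured and 70.4 ± 22 CPM in fresh cells (log2 1.81 ± 0.39, adjusted p = 0.00945; 2.50 without fresh library 5). Ppp1r15a, which restores translation after stress by directing a phosphatase to eIF2α, had 165 ± 89.6 CPM in cultured and 573 ± 125 CPM in fresh cells (log2 -1.79 ± 0.42, adjusted p = 0.0135; 0.0566 and 0.0573 without fresh library 4 and 5). Pdcd4, an inhibitor of eIF4A, had 7.30 ± 7.89 CPM in cultured and 41.7 ± 12.3 CPM in fresh cells (log2 -2.79, adjusted p = 0.0312). The eIF4E-binding Eif4ebp2 (log2 2.34, adjusted p = 0.0364) and the elongation factor kinase Eef2k (log2 -1.83, 0.0400) were near the threshold as well. Pdcd4 lost its call without cultured library 2 or any fresh library (adjusted p 0.0514 to 0.158; log2 -4.16 without cultured library 3) and Eif4ebp2 without the same libraries (0.0504 to 0.191; log2 1.32 without cultured library 2). Eef2k lost it without any library but cultured library 3 (0.0512 to 0.264). Against run-1 fresh libraries alone Pdcd4 was at -2.21 (adjusted p = 0.0729) and Eif4ebp2 at 1.47 (0.112).

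**Figure D4:**
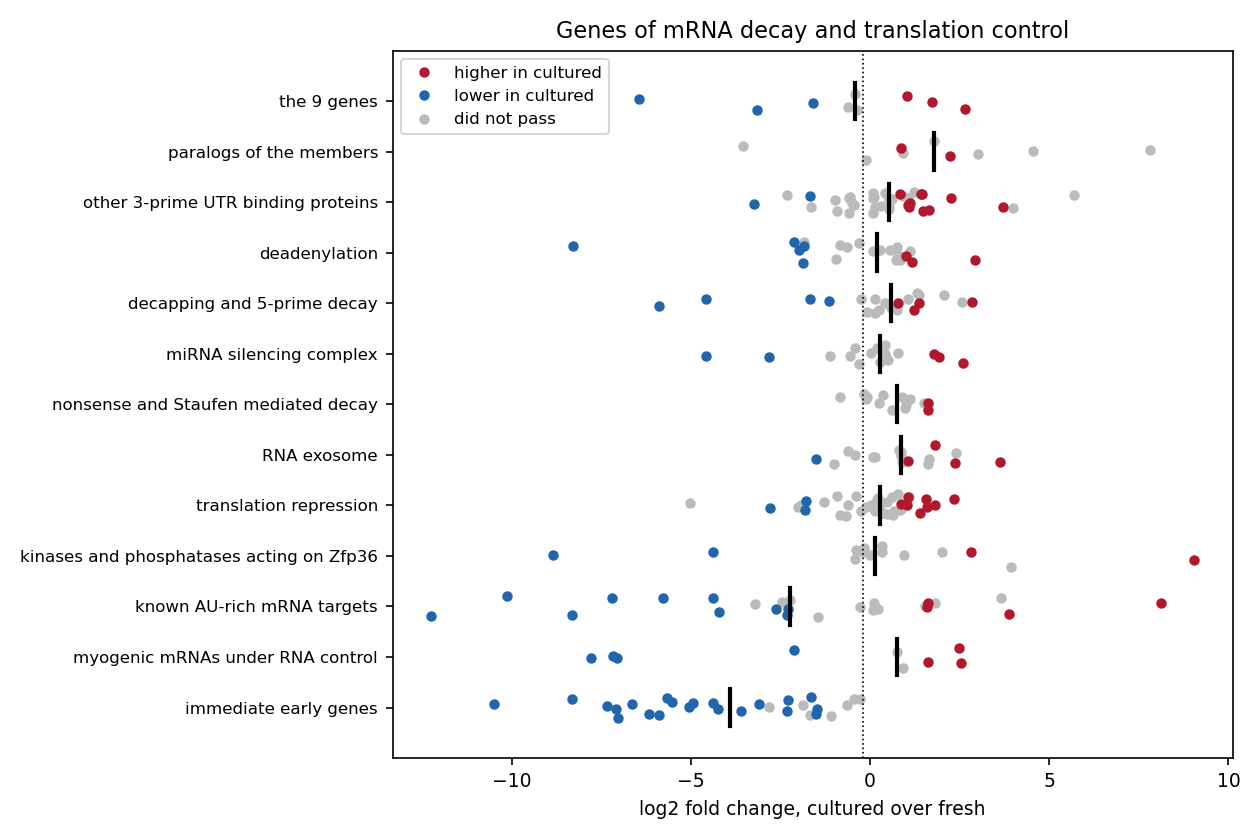
Log2 fold change of cultured over fresh cells for each tested gene of the 9 and of 12 lists, red where higher, blue where lower and grey where the test was not passed, with a bar at each list's median and a dotted line at the median of all genes (-0.21). Immediate early genes (median -3.92) and known AU-rich mRNAs (median -2.24) lie furthest to the left.

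The p38 pathway is known to phosphorylate ZFP36 through the kinase MK2, which stops it from recruiting deadenylases. Of 14 kinase and phosphatase genes of this route, 2 rose and 2 fell (median 0.15). Map2k3, an upstream kinase of p38, had 272 ± 11.6 CPM in cultured and 56.3 ± 17.6 CPM in fresh cells (log2 2.82 ± 0.25, adjusted p = 0.000245). Dusp1, a p38 phosphatase whose mRNA is itself a ZFP36 target, fell to 80.5 ± 21.9 CPM in cultured cells, against 1378 ± 320 CPM in fresh cells (log2 -4.38 ± 0.29, adjusted p = 6.56e-05). Map2k6, another p38 kinase kinase, had 0.0172 ± 0.0297 CPM in cultured and 9.30 ± 3.45 CPM in fresh cells (adjusted p = 0.00184). Mapk13, a p38 isoform, had 3.82 ± 3.79 CPM in cultured and 0.0963 ± 0.0972 CPM in fresh cells (adjusted p = 0.0136, and 0.0598 and 0.0596 without fresh library 4 and 5).

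The known AU-rich mRNAs listed here are targets of ZFP36 family proteins in other cells or, for Myod1, in muscle stem cells. Of 25 tested, 10 fell, 4 rose and 11 did not pass, with a median log2 fold change of -2.24. Cxcl1, a chemokine, had 5.72 ± 2.32 CPM in cultured and 225 ± 100 CPM in fresh cells (log2 -5.77 ± 0.46, adjusted p = 0.000157). Il6, a cytokine, had no count in any cultured library and 25.0 ± 14.6 CPM in fresh cells. With 3 counts given to the cultured libraries together (0.0517 CPM), it was at least 686-fold lower than the mean of the fresh libraries of run 2 (35.5 CPM). Fos, given above, fell as well (log2 -8.31 ± 0.50, adjusted p = 4.84e-05). Several of these genes, Fos and Dusp1 among them, are also in the immediate early list.

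The 4 AU-rich mRNAs that rose were Myod1, Ccnd1, Vegfa and Csf2. Ccnd1, the G1 cyclin, had 791 ± 109 CPM in cultured and 95.9 ± 58.1 CPM in fresh cells (log2 3.87 ± 0.50, adjusted p = 0.00126). Vegfa, the angiogenic growth factor, had 184 ± 115 CPM in cultured and 71.0 ± 17.4 CPM in fresh cells (log2 1.60, adjusted p = 0.0429), a call that ended without any single fresh library (0.0579 to 0.175) and against those of run 1 alone (log2 1.28, adjusted p = 0.0530). Csf2, a cytokine, was low in both groups, at 2.00 ± 0.600 CPM in cultured and 0.162 ± 0.200 CPM in fresh cells, and was called (adjusted p = 0.00951). Its fitted log2 fold change of 8.12 is larger than such counts can measure. In run-2 fresh libraries together 3 counts are 0.0962 CPM. That call was lost with no run term (log2 3.57, adjusted p = 0.0537) and with the replicate block (3.03, 0.179).

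Across all 14299 genes with a 3′ UTR, the number of TATTTAT matches went with a slightly lower median fold change, from -0.14 for the 10358 genes with none to -0.24 with 1, -0.42 with 2 and -0.41 for the 501 genes with 3 or more. Genes with more matches had longer 3′ UTRs, with a median of 704 bases for none and 3293 bases for 3 or more. The genes were therefore also split into 4 classes of equal size by 3′ UTR length. In the class of the longest 3′ UTRs the median was -0.33 with a match and -0.34 without. In the next longest it was -0.41 with and -0.13 without, in the one after that -0.05 and -0.18, and in the class of the shortest 0.30 and -0.03. The direction of the difference was thus not the same at all lengths.

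**Figure D5:**
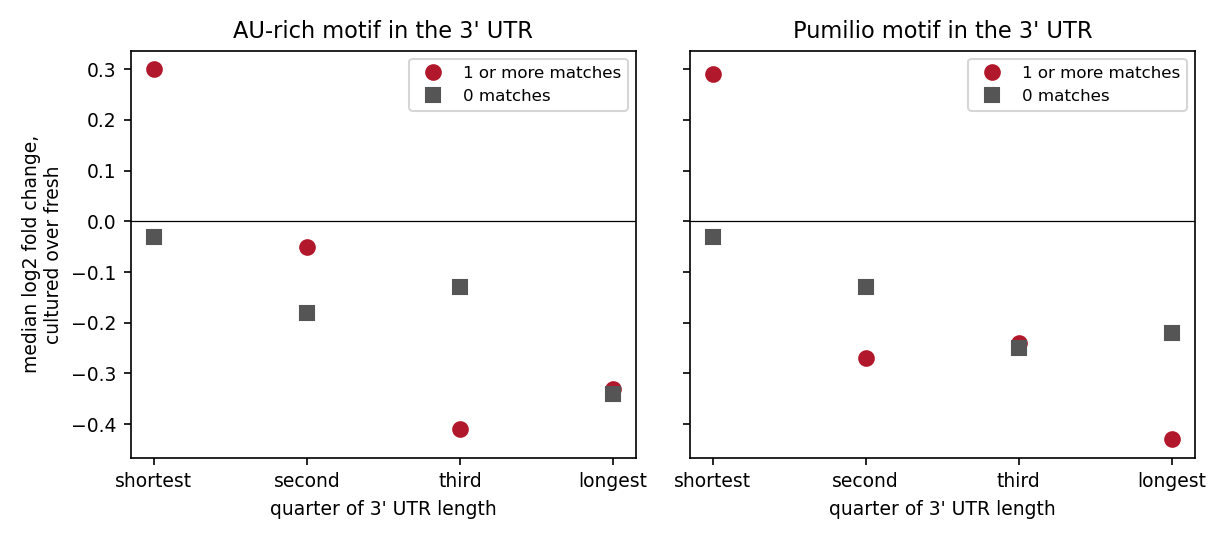
Median log2 fold change of cultured over fresh cells for genes with at least 1 match (circles) and with 0 matches (squares), by class of 3′ UTR length (4 classes of equal size), for the AU-rich heptamer (left) and the Pumilio motif (right). For the heptamer the points with and without a match are -0.33 and -0.34 in the class of the longest.

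A list of myogenic mRNAs under control at the RNA level, not all of them by the 9 regulators, had 3 of 9 higher and 4 lower. Myod1, the myogenic determination factor that ZFP36 and STAU1 hold down in quiescent cells, had 210 ± 49.3 CPM in cultured and 76.5 ± 11.5 CPM in fresh cells (log2 1.63 ± 0.29, adjusted p = 0.00506). Cdkn1a, a cell cycle inhibitor whose mRNA ELAVL1 stabilises in muscle cells, had 495 ± 164 CPM in cultured and 140 ± 53.1 CPM in fresh cells (log2 2.48 ± 0.34, adjusted p = 0.00149). Npm1, a nucleolar protein whose mRNA ELAVL1 destabilises during mouse myogenesis, had 3457 ± 363 CPM in cultured and 436 ± 158 CPM in fresh cells (log2 2.54 ± 0.27, adjusted p = 0.000530). Myf5, a determination factor held in mRNA granules in quiescent cells, fell to 70.6 ± 3.39 CPM in cultured cells, against 278 ± 35.7 CPM in fresh cells (log2 -2.12 ± 0.21, adjusted p = 0.000331).

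Myog, the differentiation factor and another ELAVL1 target, was at 0.0170 ± 0.0294 CPM in cultured and 2.34 ± 1.06 CPM in fresh cells (adjusted p = 0.00635). Pax3 had 0.136 ± 0.235 CPM in cultured and 20.0 ± 11.4 CPM in fresh cells (adjusted p = 0.00488), and Mef2c 0.0849 ± 0.147 CPM in cultured and 20.5 ± 11.6 CPM in fresh cells (adjusted p = 0.00532). Hmgb1 (106 ± 26.0 CPM in cultured and 46.2 ± 17.1 CPM in fresh cells, log2 0.74 ± 0.33, adjusted p = 0.132) and Dek (419 ± 96.8 CPM in cultured and 145 ± 74.0 CPM in fresh cells, log2 0.93 ± 0.36, adjusted p = 0.0885) did not pass, although all cultured libraries were above all fresh ones for both. Hmgb1 passed in 4 alternatives and Dek in 5, among them the comparison with run-1 fresh libraries alone (Hmgb1 log2 1.67, adjusted p = 0.00450; Dek log2 2.19, adjusted p = 0.00385).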

How the data were processed

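RNA-seq was done on 3 cultured and 5 fresh libraries. Per the labels' protocols, RNA was isolated with a Qiagen micro kit and amplified as cDNA with NuGEN Ovation. STAR, RSEM and the build mm10 are named per the submitters' processing notes, with versions, strand setting and annotation not given in the sources used here. Values are the expected counts of genes from RSEM, which the authors deposited as 1 table and of which 50.1% of those above 0 were not whole. They were rounded for testing, and RSEM divides reads that fit several genes.

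The 92 lines of spike-in sequences were left out, and 2423 lines without an identifier (0.385 to 0.568% of counts) were kept. Groups and runs came from the labels. Genes were kept by filterByExpr (0.0984 to 0.665% of counts left out), scaled by TMM and tested by quasi-likelihood in edgeR 4.0.16 under R 4.3.3 (run and culture as terms, 5 residual degrees of freedom, Benjamini-Hochberg adjustment, threshold 0.05). The script was tested on simulated data with 200 changed genes. All pairs of libraries differed by more than sampling noise. Coordinates, exon lengths and 3′ UTRs are from GENCODE M21, which held 98.8% of the identifiers. Floors are 3 counts over a group and, as the labels mention no molecular identifiers, cover counting error only.

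The 9 genes and all lists were chosen with earlier results of these data known. Named are the 9 genes, their paralogs (a result of 1 is not reported here), the myogenic list, and up to 4 called genes per list of at least 10 CPM and the largest fold changes. Those that fill up a count of 5 or fewer, and Fos, Nr4a1 and Ccl25 where they stand beside a result, were named after seeing their values. Alternatives tried were other scalings, filters, run terms and library sets, DESeq2 1.42.0, limma-voom 3.58.1, a replicate block and leaving out each library.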

Additional observations from a re-analysis of the deposited data

Results flagged for a closer look

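None of the 9 regulators had a fresh library far from the others by Dixon's criterion, while 2 genes of their pathways did, among 77 named genes tested in the 5 fresh libraries, where chance flags about 1 in 20. Cnot9, the CCR4-NOT subunit, was at 5.08 CPM in fresh library 5, against 13.8 to 17.3 CPM in the other fresh libraries, a gap of 0.710 of the range. Lsm6, a decapping factor, was at 41.2 CPM in fresh library 4, against 19.8 to 24.8 CPM in the others, a gap of 0.766 of the range.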

How the results depend on the processing

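Zfp36, Zfp36l1, Pabpc1 and Pabpc4 kept their direction and call in all 18 alternatives, with log2 fold changes of -6.76 to -6.01, -3.38 to -2.27, 1.49 to 2.15 and 2.08 to 3.09. Elavl1 kept its direction in all 18 (0.77 to 1.43) and its call in 9. It lost the call with no filter on low counts (adjusted p = 0.0730), in run 2 alone (0.103) and without 6 single libraries. Zfp36l2 turned to 0.21 against run-1 fresh libraries alone. Pum2 (0.07) and Ddx6 (0.00) turned without scaling factors, a setting that shifted the median of all genes by 0.41 and made 46.2% of calls higher, beside 33.0%. Stau2 turned to 0.44 against run-1 fresh libraries, 0.18 with no run term, 0.21 without scaling factors and was -0.87 to 0.31 without single libraries. The causes were not tested.

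Calls over all genes (5122) were 2780 in run 2 alone, with 2 fresh libraries, and 3337 to 6163 leaving out single libraries. Calls in the pathway lists (93) were 61 and 61 to 108. Calls among the 9 genes (6) were 4 to 6 leaving out single libraries, 2 to 3 of them higher and 2 to 4 lower. Between runs, calls (36) were 806 with fresh libraries alone, where 1 of the 9 genes was called, and 1 to 36 leaving out single libraries. The run difference turned for Pum2 without scaling factors (-0.13), Ddx6 without fresh library 5 (range -0.27 to 0.06 over single libraries) and Elavl1 without fresh library 4 (-0.11 to 0.06). With the longest transcript as length, Pabpc4 gave 4.57% of its family in cultured and 2.84% in fresh cells. The order of the 9 genes by level also shifted with that length, as given with the levels per kb.

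Deviations of same-numbered cultured and fresh libraries from their group means correlated at 0.04, 0.00 and -0.01. The fresh mean was taken over both runs, so the fresh deviations also hold the run difference. These correlations therefore cannot decide whether replicate numbers pair the libraries. With the replicate block 2482 genes were called, Zfp36l2 was at 0.08, Stau2 at 0.06 and Elavl1 at 0.93 (adjusted p = 0.0749). Only fresh libraries of run 1 share numbers with cultured ones, so this fit sets culture against run 1.

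Of 59 called genes named beside the 9, 27 kept the call in every alternative. Precision is limited by the 2 fresh libraries that share a run with cultured cells.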

Other observations

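Over the 8 libraries, the pattern of each regulator was set beside those of 8910 genes with a mean of at least 10 CPM, by Pearson's r of log2 CPM, as a description of libraries that fall into 2 groups. Nearest to Zfp36 were Otoa and Pik3ip1 (both r = 0.999), and nearest to Zfp36l1 were Klf4 (r = 0.997) and Nsmf (r = 0.99). Nearest to Zfp36l2, whose level was higher in run-2 than in run-1 fresh libraries, were Dazap2 (r = 0.97) and Zfp68 (r = 0.95). For Pum2 they were Crebzf (r = 0.97) and BC005537 (r = 0.94), for Stau1 Snai2 and Rnf10 (both r = 0.99), and for Ddx6 Ctnnd1 and Epc1 (both r = 0.97). Pabpc1 was nearest to Cdk6 and Ipo11 and Pabpc4 to Setd8 and Yae1d1 (all r = 0.99), and Elavl1 was nearest to Mcm4 and Cfap43 (both r = 0.98). Among the 9 genes themselves, Pabpc1 with Pabpc4 (r = 0.96), Zfp36 with Zfp36l1 (r = 0.95), Pabpc1 and Pabpc4 with Elavl1 (r = 0.94 and 0.92), Zfp36 with Ddx6 (r = 0.90) and Zfp36l2 with Pum2 (r = 0.83) were alike, and Zfp36 with Zfp36l2 less so (r = 0.32).

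For the Pumilio motif, the median log2 fold change was -0.25 for 2396 genes with 1 match in the 3′ UTR, -0.50 for 711 with 2, -0.36 for 349 with 3 or more and -0.14 for the 10843 with none. Among the genes with the longest 3′ UTRs, 1 of 4 classes of equal size, the medians were -0.43 with a match and -0.22 without, and in the next longest class -0.24 and -0.25. In the class after that they were -0.27 with a match and -0.13 without, and in that of the shortest 0.29 and -0.03.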
